A study of Homo sapiens with 6 samples.

Results

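The septin genes were examined for changes in alternative splicing (AS) after SAM68 overexpression in NCI-H1975, an established human lung adenocarcinoma cell line. The members were the skipped exon (SE), alternative 5′ splice site (A5SS), mutually exclusive exon (MXE) and retained intron (RI) events whose gene symbol is SEPT followed by digits, with a mean of at least 10 junction reads over the 6 libraries. Of 72644 listed events of these 4 types, 116 belonged to septin genes and 85 of them met the minimum of reads. These were 75 of 96 SE, 1 of 7 A5SS, 9 of 12 MXE and 0 of 1 RI events, and they lay in 8 genes (SEPT2, SEPT3, SEPT6, SEPT7, SEPT8, SEPT9, SEPT10 and SEPT11, now named SEPTIN2 to SEPTIN11). The least-read member had a mean of 11.2 reads and the most-read event left out had 9.67. The alternative 3′ splice site events were set aside, because a spreadsheet had turned the septin symbols of that table into dates.

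Cells of the control group were transfected with the empty PCDNA3.1 plasmid and cells of the SAM68 group with PCDNA3.1 carrying SAM68 (2 µg per well, with lipofectamine), and RNA was taken after 48 h. Each group had 3 libraries. The study compared the groups to find splicing changes caused by the RNA-binding protein SAM68. The deposited lists give the libraries no numbers, so they are called here control 1, 2 and 3 and SAM68 1, 2 and 3 by their place in the lists. The SE events held 18114969, 19645856 and 18627563 junction reads in control 1, 2 and 3, and 19737729, 16951876 and 17007769 in SAM68 1, 2 and 3. A read can count in several events. The authors call them biological replicates, and whether they came from separate cultures is not stated for these libraries, so that p-values measure only the spread between these libraries, which may be technical.

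Septins are GTP-binding proteins that join into hetero-oligomers and filaments on membranes and along actin and microtubules. They are known for their place at the cleavage furrow of dividing cells, where they act as a scaffold and as a barrier to diffusion. Human septins fall into the SEPT2, SEPT3, SEPT6 and SEPT7 groups by sequence, and a member of each group takes a set place in the oligomer. Several septin genes, SEPT9 among them, are known for alternative first exons and different protein starts.

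The overexpressed gene was examined first. KHDRBS1, which encodes SAM68, had 312, 330 and 317 junction reads per 1000000 (rpm) in control 1, 2 and 3, and 1236, 1265 and 1282 rpm in SAM68 1, 2 and 3. Each SAM68 library lay above each control library, a log2 fold change of 1.98 with an adjusted p of 1.51e-22 (limma on log2(rpm + 0.5), standard error 0.047). Here each gene is represented by its most-read event of the 4 types, per 1000000 such reads. Of 9 epithelial markers, 4 had a listed event (KRT8, KRT18, MUC1 and NAPSA). The keratin KRT18 had 473, 486 and 494 rpm in the control and 523, 526 and 532 rpm in the SAM68 libraries. KRT8 had 522 rpm in control 1 and 230 to 254 rpm in the other libraries. MUC1 had 1.5 to 4.6 rpm, and NAPSA had 0 to 5 reads. Of the fibroblast markers COL1A1, COL1A2, DCN and PDGFRB, only DCN had a listed event, with 0 to 9 reads, and no leukocyte marker (PTPRC, CD3E, LYZ) or endothelial marker (PECAM1, VWF, CDH5) had one. The tables list only genes with AS events, so that a gene without one has no level here.

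The exons below are those on which the septin results turn, shown on the transcribed strand of GRCh38 with the exon in capitals and intron in lower case. They are a short exon that carries the start codon of SEPT2, an optional exon upstream of it, a rare exon of SEPT2, the shortest exon among the members, the start of a variable exon of SEPT6 and an exon of SEPT10 whose intron opens with GC in place of GT.
SEPT2 exon 2, chr2:241324214-241324243, + strand: agACGAAGCTTCACAAAAGATGTCTAAGgt
SEPT2 85-nt leader exon, acceptor, chr2:241320183-241320212, + strand: gttttcccttttctctgtagAGGCTTGGAA
SEPT2 30-nt exon, chr2:241335302-241335371, + strand: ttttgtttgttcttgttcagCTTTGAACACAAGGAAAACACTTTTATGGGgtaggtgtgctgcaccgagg
SEPT7 5-nt exon, chr7:35831480-35831509, + strand: ttctttacaaagTAGCTgtgagtatactac
SEPT6 exon 10, acceptor, chrX:119625370-119625399, − strand: cagctcttactgttttacagTTAACTCTGC
SEPT10 exon 9, chr2:109553067-109553239, − strand: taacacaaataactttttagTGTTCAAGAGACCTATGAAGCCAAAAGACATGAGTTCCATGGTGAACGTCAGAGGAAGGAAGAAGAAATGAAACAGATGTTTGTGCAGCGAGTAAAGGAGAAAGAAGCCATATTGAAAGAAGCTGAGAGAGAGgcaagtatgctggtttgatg
A pair of donor sites at the end of SEPT10 exon 2 lies 4 nt apart. The capitals mark the 4 nt that belong to the exon only when the downstream donor is used.
SEPT10 exon 2, donors, chr2:109593033-109593062, − strand: gatgaacagataGTGAgtatgtcttttaaa

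None of the 85 septin events changed past the threshold. Percent spliced in (PSI) is the share of the inclusion form among the junction reads of an event, after both forms are corrected for effective length. A positive difference (∆PSI, in percentage points) means more inclusion in the SAM68 group. The threshold for a call was an absolute ∆PSI of 10 points or more together with an adjusted p below 0.05. The quasi-binomial test with limma's moderation called 0 of 75 septin SE events (0.0105% of 47449 SE events tested), 0 of 9 MXE events (0.125% of 8791) and the 1 A5SS event was not called (0% of 3010). The p-values were adjusted by Benjamini-Hochberg within each event type. The lowest adjusted p among the septin events was 0.412, for an MXE event of SEPT10 with a ∆PSI of -2.08 points. Many members share junctions and are not independent. At an unadjusted p under 0.05 there were 9 septin events (10.6%), 7 of SEPT2 and 2 of SEPT10, beside 5277 of all 61841 tested events (8.53%). This count depended on single libraries, with 14 when control 1 and 6 when control 3 was left out. Limma on the logit of PSI and the unmoderated dispersions also called 0 septin events, with 4 and 1 at an unadjusted p under 0.05. A likelihood ratio test on pooled counts, which ignores the spread between libraries, called 3 (3 of 85, beside 2.04% of all events), all of SEPT2 and all close to its start, with 21 at an unadjusted p under 0.05. For these other tests no share of all events at an unadjusted p under 0.05 is given here. Their counts at that level therefore have no comparison.

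PSI was near its limits in most septin events, as in most tested events. The mean PSI over the libraries was above 95% in 32 events, under 5% in 23 and between these bounds in 30. Of all 61841 tested events it was 33135, 9158 and 19548. The difference was positive in 42 events and negative in 43, with a median of -0.028 points, beside 0.007 over all tested events. The median absolute difference was 1.32 points in the septins and 1.22 points in all tested events. In 4 septin events (4.71%) the values of the groups did not overlap, beside 6.01% of all tested events. These were 3 events of SEPT2 and 1 of SEPT11, counted only where all 6 libraries had a value. An absolute ∆PSI of at least 10 points was reached by 11 septin events (12.9%), beside 7.03% of all tested events. These 11 were mostly thinly read, since among the 61 septin events read at least 100 times on average 2 (3.28%) reached it, beside 0.806% of all events of that depth. Both lie at the SEPT2 start.

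**Figure D1:**
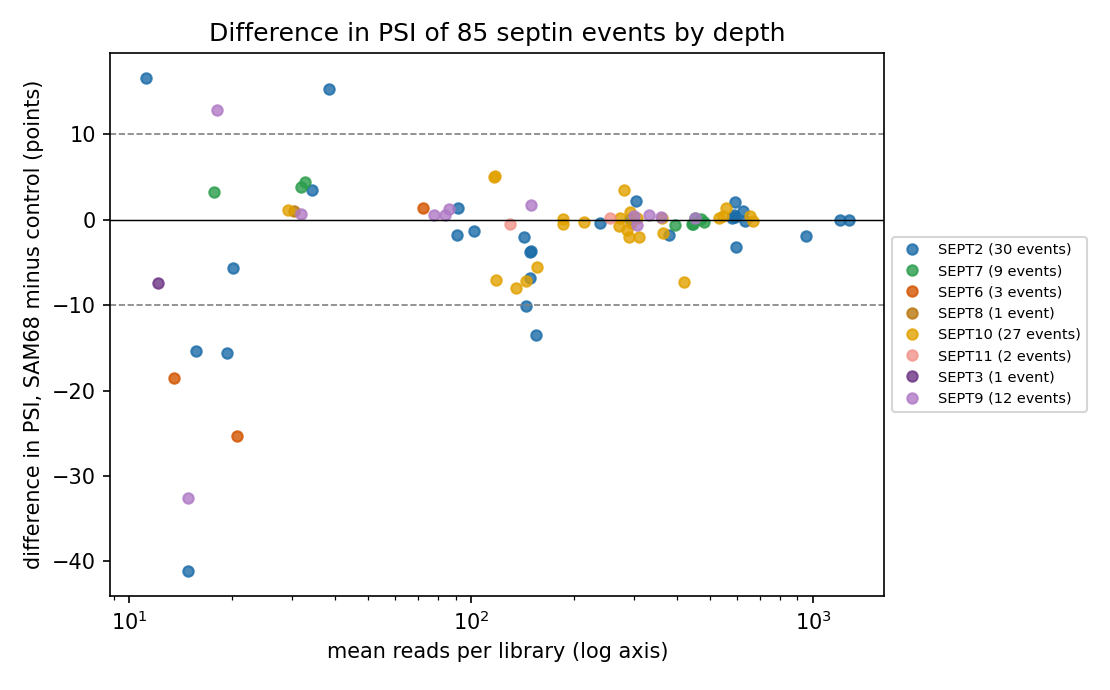
Difference in PSI (SAM68 minus control, in points) of the 85 septin events against the mean reads per library on a log axis. Each point is an event, coloured by gene, and dashed lines mark 10 points; 2 of the 61 events with at least 100 reads lie past them.

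SEPT2, which gives its group its name and is a subunit of septin filaments, gave 30 of the 85 members. Its gene lies at chr2:241315100-241354027 (+ strand). In the annotation, exon 2 of 13 is the 26-nt exon shown above, which holds the start codon after a stretch of 5′ untranslated sequence. It can be joined to several upstream exons. The junction from the first exon that ends at 241315610 had 76, 75 and 87 reads in control 1, 2 and 3, and 124, 72 and 98 reads in SAM68 1, 2 and 3. The junction from the first exon that ends at 241315982 had 196, 169 and 14 reads in the control and 140, 175 and 155 reads in the SAM68 libraries. Control 3 stood apart from the other 5 libraries at this junction and the groups overlapped.

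The share of the first of these junctions in the sum of both was 27.9, 30.7 and 86.1% in control 1, 2 and 3, and 47.0, 29.2 and 38.7% in SAM68 1, 2 and 3. Its mean was 48.3% ± 32.8 (SD, n = 3) in the control and 38.3% ± 8.92 (SD, n = 3) with SAM68, a difference of -9.99 points (two-sided exact permutation test, p = 0.9, where 3 against 3 allow no p below 0.1). Without control 3 the control mean was 29.3% and the difference was 8.94 points in the other direction. This comparison was chosen after the values were seen.

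Control 3 also had fewer reads from exon 2 to exon 3, with 213 beside 414 and 399 in control 1 and 2 and 405, 349 and 372 in SAM68 1, 2 and 3. Further along the transcript it did not stand apart. The junction from exon 4 to exon 5 had 599, 646 and 587 reads in control 1, 2 and 3 and 594, 521 and 513 in SAM68 1, 2 and 3. Such a drop in a library was rare across the tables. Of 4403 distinct skipping junctions with a median of at least 50 reads in a group, 19 (0.432%) had a library with under 1/5 of that median. Among the 9 septin junctions of that depth it was this 1 junction. The reason for the drop was not tested.

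**Figure D2:**
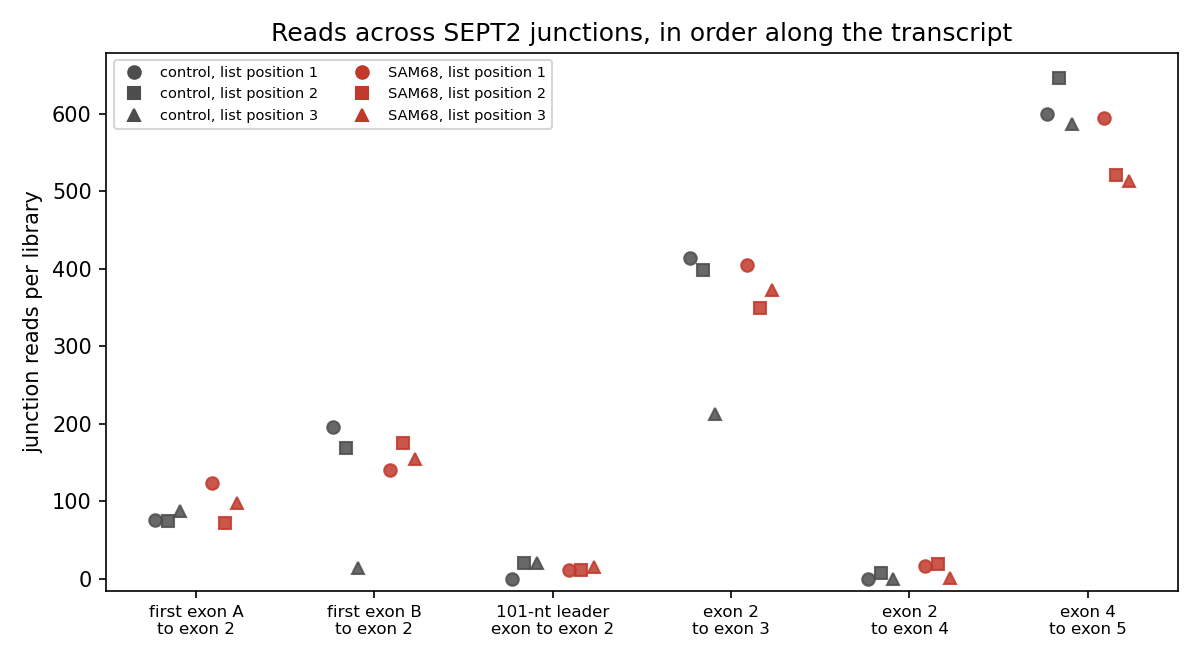
Junction reads per library across 6 SEPT2 junctions, in order along the transcript. Each point is a library (control dark, SAM68 red, shapes by list position); first exon A ends at 241315610 and first exon B at 241315982, and control 3 lies at 14 reads for B and at 213 reads from exon 2 to exon 3.

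The same junction enters 6 SE events, whose PSI values therefore move together in control 3. The optional 101-nt leader exon (chr2:241317499-241317599, 5′ untranslated in the annotation) had a PSI of 0, 6.56 and 45.9% in control 1, 2 and 3, and 3.88, 3.73 and 4.53% in SAM68 1, 2 and 3. The control mean was 17.5% ± 24.8 (SD, n = 3) and the SAM68 mean 4.05% ± 0.422 (SD, n = 3). The ∆PSI of -13.4 points had an adjusted p of 0.681 in the quasi-binomial test, and without control 3 it was 0.76 points. With all SE events of this exon summed it was -6.06 points.

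The 85-nt leader exon (chr2:241320203-241320287) was, from 20 mean reads upwards, the only septin event whose groups did not overlap at a ∆PSI of 5 points or more. Its PSI was 0.616, 1.77 and 28.1% in control 1, 2 and 3 and 0% in each SAM68 library, where 0 of 470 reads allow a share of up to 0.638% by the 3-read limit. The inclusion reads were 2, 5 and 9 in the control libraries. The ∆PSI of -10.2 points had a p of 0.0264 and an adjusted p of 0.546 (quasi-binomial test), and it was -1.19 points without control 3 and -3.96 points with all SE events of the exon summed. An exact permutation test gave p = 0.1, the smallest it can give. Pooled counts in a likelihood ratio test put this event past the threshold (adjusted p = 0.00012), and under the other settings the adjusted p was 0.101 to 0.896. Between the 101-nt leader exon and exon 2 the same exon had 1, 3 and 6 inclusion reads in control 1, 2 and 3 and 0 in the SAM68 libraries (mean depth 14.8 reads). Its PSI there was 100, 7.99 and 15.4% in the control, the 100% from 1 read, and 0% with SAM68, a ∆PSI of -41.1 points (adjusted p = 0.461, quasi-binomial test). There 0 of 38 SAM68 reads allow a share of up to 7.89%. After the first exon that ends at 241315610 the exon had 1, 3 and 7 reads in control 1, 2 and 3 and 0, 3 and 0 in SAM68 1, 2 and 3, so that there the groups overlapped. A read from this exon to exon 2 can count in each of these 3 events. The limits cover counting error only.

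Between the first exon that ends at 241315610 and exon 3, mean inclusion of exon 2 was 99.1% ± 1.61 for the control and 98.7% ± 2.28 for SAM68 (SD, n = 3 each). Between the first exon that ends at 241315610 and exon 4, its PSI was 100, 80.8 and 62.7% in control 1, 2 and 3 and 100, 96.7 and 92.6% in SAM68 1, 2 and 3. The groups overlapped. The skipping reads behind it were 0, 7 and 16 in the control and 0, 1 and 2 in the SAM68 libraries. This skipping leaves out exon 3 too. The inclusion reads were 30, 35 and 32 in the control and 42, 35 and 30 with SAM68. The junction from exon 2 to exon 4 had only 0, 7 and 0 reads and 16, 19 and 1 reads. The inclusion reads were thus not all from transcripts that join exon 2 to exon 4, and the PSI is a share of junction reads. The ∆PSI was 15.3 points, with an odds ratio of 8.46 (95% interval 1.48 to 48.2, from the moderated dispersion), p = 0.00668 and adjusted p = 0.435 in the quasi-binomial test. It ranged from 6.08 to 24.8 points when libraries were left out in turn and was 1.86 points with all SE events of the exon summed. The test on pooled counts also put it past the threshold (likelihood ratio test, adjusted p = 0.00282).

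Exon 3 (121 nt, coding) was present in nearly every transcript. The junction that leaps from exon 2 to exon 4 had 0, 7 and 0 reads in control 1, 2 and 3 and 16, 19 and 1 reads in SAM68 1, 2 and 3. Next to 2816 inclusion reads in the control and 2846 in the SAM68 group, PSI was 99.6% ± 0.743 (SD, n = 3) and 97.7% ± 1.92 (SD, n = 3). The ∆PSI of -1.92 points had an adjusted p of 0.445 (quasi-binomial test), and the groups overlapped. A 147-nt form of exon 3, set against the same leap, had a ∆PSI of -3.19 points. Its p of 0.00617 was the lowest of the septin events (adjusted p = 0.43, quasi-binomial test), and the groups overlapped. Both forms share the junction to exon 4, so that this PSI is not that of the 147-nt form alone. The leap from the first exon to exon 4 had 23 reads in the control and 3 in the SAM68 group. These are the same reads as the skipping reads of exon 2 above, so that both results rest on them. The 23 reads came from control 2 and 3, the groups overlapped there too, and the adjusted p was 0.477 (quasi-binomial test).

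A 119-nt leader exon (chr2:241316422-241316540, 5′ untranslated) differed without overlap after 1 first exon only. After the first exon that ends at 241315610 its PSI was 0.685, 0.694 and 1.19% in control 1, 2 and 3 and 2.5, 2.1 and 2.1% in SAM68 1, 2 and 3, on 4 inclusion reads in the control and 13 in the SAM68 group (adjusted p = 0.565, quasi-binomial test). After the first exon that ends at 241315982 it was 1.84, 1.23 and 25.2% in the control and 1.48, 3.75 and 2.63% with SAM68, where the groups overlapped.

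The most-read SEPT2 event between the bounds is listed as exon 2 or exon 3 between the first exon and exon 4. Exons 2 and 3 are mostly used together, so that its PSI is a share of junction reads and not a choice between the exons. It was 7.29, 8.19 and 8.59% in control 1, 2 and 3 and 9.75, 9.40 and 7.94% in SAM68 1, 2 and 3 (adjusted p = 0.868, quasi-binomial test). The odds ratio was 1.14 with a 95% interval of 0.777 to 1.69. The 30-nt exon between exons 4 and 5 had 0 of 1832 reads in the control, which allows a share of up to 0.164%, and 4 of 1632 reads in the SAM68 group.

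SEPT7, the only member of its group and the subunit that no other septin replaces in the oligomer, gave 9 members. Its gene lies at chr7:35800932-35907110 (+ strand). The 5-nt exon shown above is exon 2 of 14 and coding. It was included in 73.6, 88.6 and 72.7% in control 1, 2 and 3 and in 100, 92.6 and 52.2% in SAM68 1, 2 and 3. The SAM68 libraries thus held both the highest and the lowest value. A mean of 17.7 reads stood behind these values. Longer forms of 72 and 144 nt share its donor, so that a read from the donor to exon 3 can count in each of the 3 events. The event of the 144-nt form, the most-read alternative event of SEPT7, had a PSI of 69.8, 88.9 and 81.0% in control 1, 2 and 3 and of 100, 92.0 and 61.0% in SAM68 1, 2 and 3. Its ∆PSI was 4.44 points (adjusted p = 0.972, quasi-binomial test, odds ratio 1.06 with a 95% interval of 0.317 to 3.52), and -3.40 to 16.1 points when libraries were left out in turn. The skipping junction, shared by the 3 forms, had 8, 2 and 4 reads in the control and 0, 1 and 8 in the SAM68 libraries. A 94-nt exon (chr7:35838564-35838657) outside the reference transcript was included in 1.58% ± 0.525 (SD, n = 3) in the control and 1.31% ± 0.195 (SD, n = 3) in the SAM68 libraries. SEPT7 has many processed copies in the genome, and how the authors' counting treated reads that match several places is not given in the sources used here.

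The SEPT6 group gave 33 members, 27 of them in SEPT10. These septins can replace each other in the oligomer. SEPT10 lies at chr2:109542799-109614143 (− strand). Its exon 9 of 11, with the GC donor shown above, was the most-read alternative event of the gene. PSI was 92.2, 96.3 and 92.6% in control 1, 2 and 3 and 92.5, 93.6 and 96.3% in SAM68 1, 2 and 3. The groups overlapped, with an odds ratio of 1.07 (95% interval 0.66 to 1.74) and an adjusted p of 0.879 (quasi-binomial test). The ∆PSI was 0.44 points and turned sign when libraries were left out in turn (-0.645 to 1.74 points). At 133 nt its skipping shifts the reading frame. GC donors were present at 2 of the 45 distinct septin exons of SE events (4.44%) and at 1.47% of the 38685 tested exons.

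The largest difference in SEPT10 was at exon 2. The event is listed with the 73-nt form of the exon, but its junction from exon 1 is common to the 69-nt form, for which the ∆PSI was -7.19 points, so that the PSI is not that of the 73-nt form alone. Set against a junction from exon 1 to exon 6, PSI was 72.4, 80.6 and 85.4% in control 1, 2 and 3 and 83.6, 66.4 and 64.5% in SAM68 1, 2 and 3. The mean was 79.5% ± 6.54 (SD, n = 3) in the control and 71.5% ± 10.5 (SD, n = 3) with SAM68. The ∆PSI of -7.96 points had an adjusted p of 0.565 (quasi-binomial test), SAM68 1 lay within the control values, and the range was -14.0 to -4.46 points when libraries were left out in turn. With all SE events of this exon summed it was -4.60 points. Exon 1 was also joined to exon 3 (44, 51 and 39 reads in the control and 41, 36 and 34 in the SAM68 libraries). Its junctions to exon 4 (0, 0 and 12 against 0, 10 and 10 reads) and exon 5 (4, 0 and 14 against 0, 2 and 0 reads) were absent from some libraries of each group. Exon 4, set against the junction from exon 1 to exon 5, had a ∆PSI of 3.53 points. Its p was 0.0179 and its adjusted p 0.519 (quasi-binomial test), and the groups overlapped. Of the 2 donors of exon 2, the one 4 nt downstream had 3, 5 and 1 reads in control 1, 2 and 3 and 5, 0 and 1 reads in SAM68 1, 2 and 3, beside 207, 288 and 217 and 212, 162 and 182 reads at the other. Its share was 1.17% ± 0.641 (SD, n = 3) and 0.929% ± 1.18 (SD, n = 3), with an adjusted p of 0.942 (quasi-binomial test).

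SEPT6 lies at chrX:119615724-119693370 (− strand). Its exon 10 of 11 (45 nt, chrX:119625335-119625379) holds the end of the coding sequence and the start of the 3′ untranslated region. Set against the junction to the exon that begins at 119618786, its PSI was 0, 100 and 9.64% in control 1, 2 and 3 and 0, 22 and 12% in SAM68 1, 2 and 3. The inclusion reads were 0, 11 and 4 and 0, 6 and 6, and the skipping reads 16, 0 and 28 and 4, 16 and 33. Control 2 stood alone at 100% in this event. The ∆PSI of -25.3 points (adjusted p = 0.754, quasi-binomial test) was 6.46 points without control 2 and -15.7 points with all SE events of the exon summed. Set against the junction to the exon that begins at 119620051, PSI of the same exon was 100, 100 and 49.0% in the control. With SAM68 it was 0, 93.4 and 100% there (mean of 13.5 reads). SEPT11 and SEPT8 had 3 members together. The 158-nt exon of SEPT11 (chr4:76995781-76995938) had a PSI of 1.28, 1.16 and 1.66% in control 1, 2 and 3 and 0.813, 1.01 and 0.621% in SAM68 1, 2 and 3. The groups did not overlap, and the ∆PSI was -0.551 points on 13 inclusion reads in the control and 5 in the SAM68 group (adjusted p = 0.571, quasi-binomial test). The 290-nt exon of SEPT8 had 2 reads each in control 3 and SAM68 2 and 0 in the other libraries.

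The SEPT3 group, whose SEPT9 is part of the longer oligomers, gave 12 members in SEPT9 and 1 in SEPT3. SEPT9 lies at chr17:77280569-77500596 (+ strand). Its exon 2 of 12 (57 nt, chr17:77307141-77307197), between the first exon that ends at 77281554 and exon 3, had a PSI of 90.7, 99.3 and 92.2% in control 1, 2 and 3 and 89.3, 98.2 and 100% in SAM68 1, 2 and 3. The groups overlapped, with an odds ratio of 1.33 (95% interval 0.42 to 4.23) and an adjusted p of 0.775 (quasi-binomial test). The ∆PSI of 1.78 points ranged from -0.303 to 5.06 points when libraries were left out in turn. Several first exons were in use. The first exon that ends at 77281554 was joined to exon 2 by 70, 101 and 86 reads in the control and 64, 99 and 77 in the SAM68 libraries. The one that ends at 77288210 was joined to exon 2 by 29, 19 and 0 reads and by 6, 14 and 14 reads. A first exon further along, which ends at 77320348, was joined to exon 3 by 28, 46 and 22 and by 35, 36 and 23 reads. The share of the 77288210 junction among the 2 junctions to exon 2 was 15% ± 14.7 (SD, n = 3) in the control and 12.1% ± 3.41 (SD, n = 3) in the SAM68 libraries (p = 0.7 in a two-sided exact permutation test). Without control 3 the control mean was 22.6% and the difference went from -2.93 to -10.4 points. This junction had no read in control 3. The 83-nt exon set against it (chr17:77294489-77294571) had 1, 0 and 5 inclusion reads in control 1, 2 and 3 and 0, 1 and 0 in SAM68 1, 2 and 3, so that its PSI was 100% in control 3 and at most 4.2% in the other libraries. Its ∆PSI of -32.6 points, the largest of SEPT9, had an adjusted p of 0.588 (quasi-binomial test). A 130-nt exon set against the same junction (chr17:77294774-77294903) had a PSI of 10.8 and 2.57% in control 1 and 2, no read in control 3, and 14.3, 17.7 and 26.4% in SAM68 1, 2 and 3. These values did not overlap, and the ∆PSI of 12.8 points had an adjusted p of 0.565 (quasi-binomial test, mean of 18 reads). After the first exon that ends at 77281554 inclusion of this exon was 4.12, 0.494 and 0% in the control and 1.54, 2.95 and 3.76% with SAM68, where the groups overlapped. Exon 3 (645 nt, coding) had a PSI of at least 96.2% in each library. SEPT3, a mainly neuronal septin, had a mean of 12.2 reads, and only SAM68 2 had skipping reads of its 192-nt exon.

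**Figure D3:**
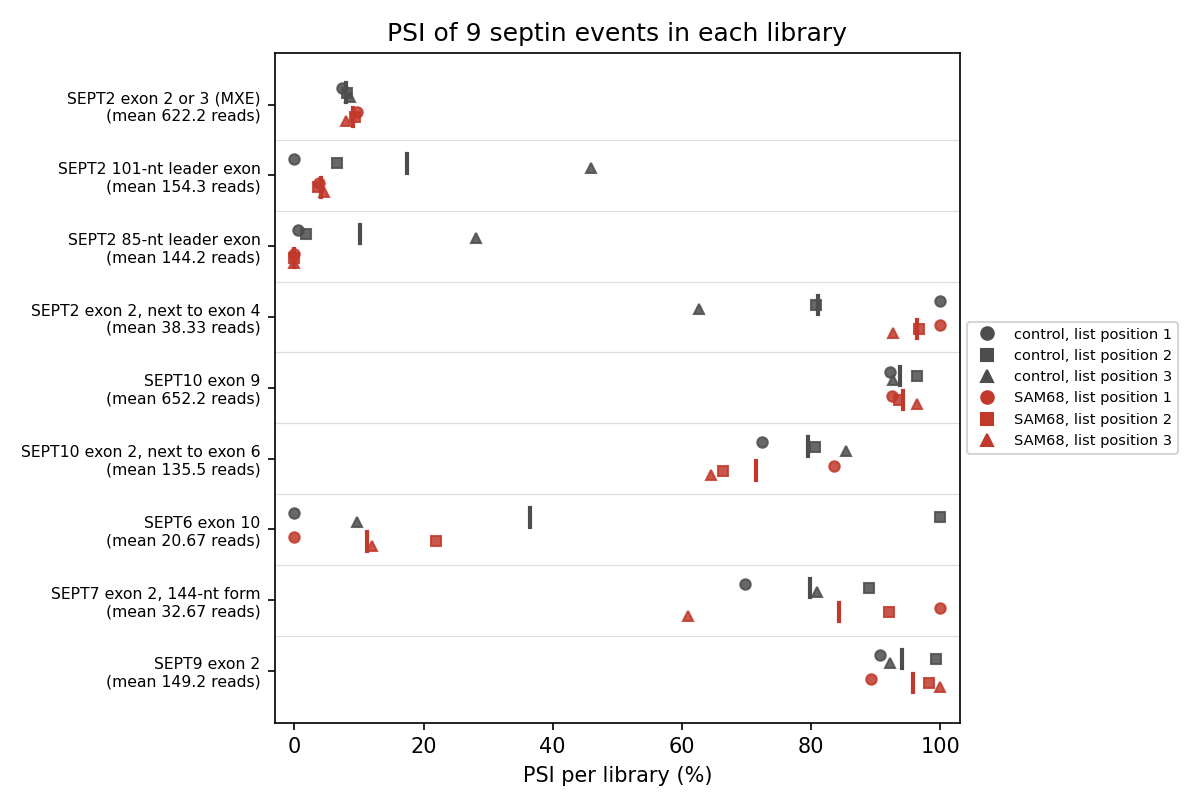
PSI per library of the 9 septin events chosen by depth, overlap and size of difference, with the group mean as a bar (control dark, SAM68 red, shapes by list position). The groups overlap in 8 events, and in the 85-nt leader exon of SEPT2 control 3 lies at 28.1% and each SAM68 library at 0%.

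The levels of the septin genes differed far more between genes than between groups. Per 100 nt of effective length, the control level of SEPT2 was 105 ± 3.23 rpm (SD, n = 3), SEPT7 67.0 ± 2.52, SEPT10 46.3 ± 1.43, SEPT9 30.9 ± 0.425 and SEPT11 20 ± 2.29. SEPT6 (4.59 ± 1.30) and SEPT8 (4.35 ± 0.655) did not differ beyond their spread, and SEPT3 was lowest (0.641 ± 0.123). The order was the same in the SAM68 libraries. With few reads per gene taken from 1 event, these levels are coarse. Alternative 3′ splice site events were left out of them. For SEPT8 such an event was read more (mean of 70.3 reads) than the event used (30.3 reads). The SEPT8 level from that event was not computed, so that its place beside SEPT6 is uncertain.

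No septin gene passed an adjusted p of 0.05 and an absolute log2 fold change of 1 in limma (0 of 8 higher, beside 0.0199% of 10062 genes, and 0 of 8 lower, beside 0.0398%). At an unadjusted p under 0.05 there were 2, SEPT7 and SEPT11 (25%, beside 12.1% of all genes). Without the limit on the fold change the count was also 0, beside 0.537% of all genes. SEPT11 had 53.0, 42.5 and 50.9 rpm in control 1, 2 and 3 and 40.2, 39.4 and 34.8 rpm in SAM68 1, 2 and 3. All SAM68 values were below all control values. The log2 fold change was -0.35 with an adjusted p of 0.208 (limma, standard error 0.121). SEPT7 had 84.0, 90.8 and 89.5 rpm in the control and 68.6, 78.7 and 80.5 rpm in the SAM68 libraries, a log2 fold change of -0.21 (standard error 0.092, adjusted p = 0.332, limma). The groups did not overlap for SEPT7 and SEPT10 either, so that 3 of 8 septin genes did not overlap (37.5%, beside 16.8% of all genes). SEPT10 had 120, 124 and 117 rpm against 97.1, 116 and 109 rpm (adjusted p = 0.432, limma). Over the 8 genes, 6 were lower and 2 higher with a median log2 fold change of -0.14, beside -0.03 over all genes. The log2 fold changes of SEPT2 (-0.09) and SEPT6 (0.17) turned sign under other settings, to 0.05 when all events of SEPT2 were summed and to -0.01 for SEPT6 without control 3.

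**Figure D4:**
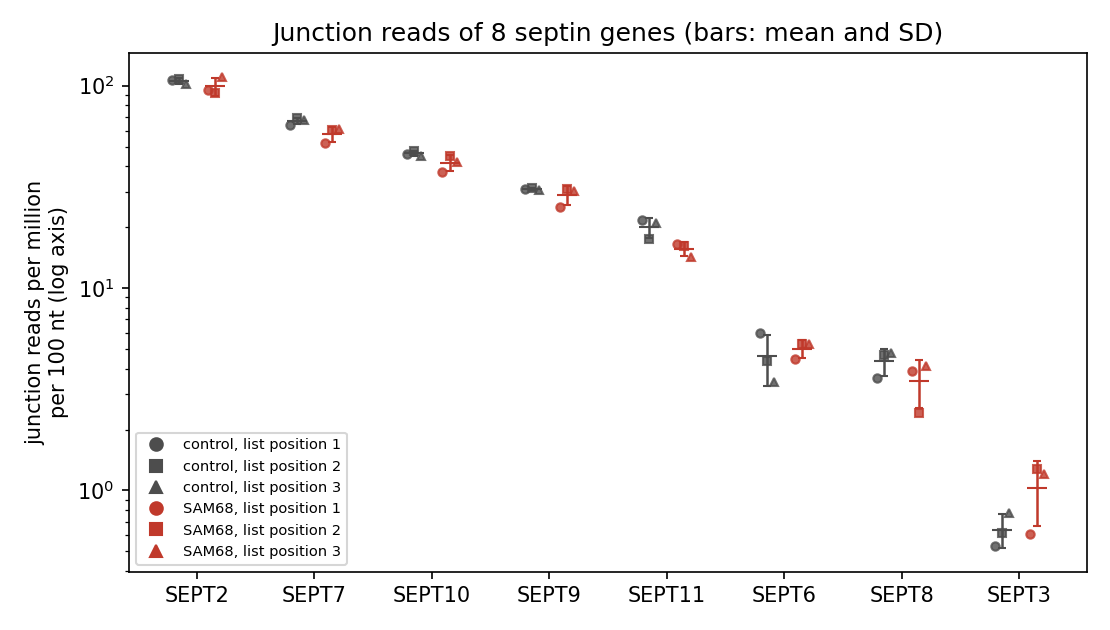
Junction rpm per 100 nt of effective length for the 8 septin genes on a log axis, with each library as a point and mean ± SD as bars (n = 3 per group, control dark, SAM68 red). SEPT2 is highest at 105 and SEPT3 lowest at 0.641 in the control libraries.

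Genes that work with septins were read from a list of 18. They include the scaffold ANLN, the small GTPases CDC42 and RHOA, non-muscle myosins and proteins of the central spindle. Events were listed for 13, and the 5 CDC42 effectors CDC42EP1 to CDC42EP5 had none. Of their 133 tested events the quasi-binomial test called 0, beside 0.0275% of all 61841 tested events. At an unadjusted p under 0.05 there were 11 (8.27%, beside 8.53% of all events). The groups did not overlap in 7 (5.26%, beside 6.01% of all events). In ECT2, the exchange factor that activates RHOA at the furrow, mean inclusion of a skipped exon (198 reads on average) was 18.0% ± 2.24 for the control and 12.6% ± 2.15 for SAM68 (SD, n = 3 each). Its groups did not overlap (adjusted p = 0.519, quasi-binomial test). At an alternative donor of ECT2 with a mean of 26.8 reads, PSI was 80.0% ± 15 (SD, n = 3) for the control and 100% in each SAM68 library, where 0 of 52 reads allow up to 5.77% of the shorter form (adjusted p = 0.513, quasi-binomial test). In MAP4, a microtubule-binding protein, an MXE share was 54.4% ± 0.921 (SD, n = 3) and 59.8% ± 1.62 (SD, n = 3), again without overlap (adjusted p = 0.522, quasi-binomial test). All 3 were named after their values were seen. At the level of genes limma called 0 of 13, beside 0.0199% of 10062 genes called higher and 0.0398% called lower. There were 2 at an unadjusted p under 0.05 (15.4%, beside 12.1% of all genes). The groups did not overlap in 4 (CD2AP, MYH10, PRC1 and RHOA, 30.8%, beside 16.8% of all genes). CD2AP, an adaptor between membranes and actin, had 66.1, 45.4 and 50.4 rpm in the control and 33.4, 37.8 and 44.2 rpm in the SAM68 libraries (log2 fold change -0.47, standard error 0.133, adjusted p = 0.105, limma). RHOA had 729, 718 and 714 rpm and 776, 752 and 797 rpm (log2 fold change 0.10, standard error 0.046, adjusted p = 0.346, limma).

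The septin exons were also read for short A- and U-rich motifs of the kind SAM68 binds, TAAA and TTAA on the transcribed strand, which can overlap. Of the 45 distinct septin exons of SE events, TAAA stood in the 200 nt upstream of 25 (55.6%, beside 59.7% of the 38685 tested exons), in 14 exons (31.1%, beside 30.8%) and in the 200 nt downstream of 31 (68.9%, beside 60.4%). TTAA stood upstream of 28 (62.2%, beside 60.9%), in 8 exons (17.8%, beside 26.5%) and downstream of 32 (71.1%, beside 59.8%). The median exon length was 121 nt, beside 117 nt, and 14 of 45 lengths were a multiple of 3 (31.1%, beside 40.5%). AG preceded 42 of the 45 exons (93.3%, beside 99.9%), and the 3 without it were alternative starts of SEPT7 exons.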

How the data were processed

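RNA of 6 NCI-H1975 libraries, 3 per group, was sequenced as paired ends. The authors filtered the reads with fastp 0.20.0, aligned them with HISAT2 2.1.0 to GRCh38 and counted junction reads with rMATS, whose version and annotation are not given in the sources used here. The deposited tables hold junction read counts of the inclusion and skipping forms, effective lengths in nt and inclusion levels as a fraction, the last used only to check the counts. The deposited p-value, FDR and difference columns hold the authors' comparisons and were not used. The first list of each table was taken as control and the second as SAM68, after the order of the groups in the study's naming of the comparison, and the level of KHDRBS1 was checked.

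PSI was computed from counts and lengths, and for an MXE event it refers to the upstream exon. At 10 mean reads or more, events were tested with a quasi-binomial model (R 4.3.3), its dispersions moderated within each event type with limma 3.58.1 and kept at 1 or more, with Benjamini-Hochberg adjustment within the type. Odds ratios carry 95% intervals from the same dispersion. Each gene was represented by its most-read SE, A5SS, MXE or RI event, as log2(rpm + 0.5). It was tested with limma with a trend and adjusted by Benjamini-Hochberg over genes. Both tests were tested on simulated data. Alternatives were other tests, minima, limits and scalings, PSI without length correction, SE events of the same exon summed, and each library left out in turn.

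Events given library by library were, by rule, the most-read one between 5 and 95% of each gene, those with groups that do not overlap at 5 points or more and 20 reads or more, and the 5 with the largest differences at 20 reads or more. Others, the comparisons of junctions and the search for a low library were chosen after the values were seen. The members and lists were chosen with earlier results of these data known. Exons were placed with GENCODE 44, and figures were drawn with matplotlib 3.10.9 (Python 3.11.15, pandas 2.3.3).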

Additional observations from a re-analysis of the deposited data

How the results depend on the processing

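The count of 0 septin events past the threshold held under every setting except the likelihood ratio test on pooled counts, which gave 3, beside 1263 of all events. That test takes no spread between libraries into account. It took past the threshold the 85-nt leader exon of SEPT2 after a first exon (-10.2 points) and after the 101-nt leader exon (-41.1 points). It also took exon 2, set against the leap from the first exon to exon 4 (15.3 points). With all SE events of the same exon summed, the ∆PSI of the 85-nt exon was -3.96, of exon 2 1.86, of the 101-nt exon -6.06, of SEPT6 exon 10 -15.7 and of SEPT10 exon 2 -4.60 points, each smaller in size. Without length normalisation it fell to 0.667 points for the event of SEPT2 exons 2 and 3, 0.236 for SEPT10 exon 9 and 1.93 for the SEPT7 144-nt exon, and it was larger in size for the 85-nt exon (-14.3) and the 101-nt exon (-16.7). A floor of 1 on the dispersion before the moderation, an alternative chosen after seeing the data, also gave 0. For the named events and genes, 141 and 78 of the alternative values kept their direction and side of the threshold, and 8 and 2 reversed. A further 2 event values passed the threshold, both in the likelihood ratio test on pooled counts. Many of the settings change only the test, its adjustment, a minimum or a limit and leave the ∆PSI as it was. Its direction could not turn there. All reversals of events came from leaving out a library. Leaving out a library in turn (leave-one-out) turned the sign of the ∆PSI of SEPT10 exon 9 (-0.645 to 1.74 points), the SEPT7 144-nt exon (-3.40 to 16.1), SEPT6 exon 10 (-43.5 to 6.46), the SEPT2 101-nt leader exon (-22.2 to 0.76) and SEPT9 exon 2 (-0.303 to 5.06). It also turned the log2 fold change of SEPT6 (-0.012 to 0.35). The log2 fold change of SEPT2 was 0.045 with all its events summed. The cause was not tested.

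No paired analysis was possible because the lists carry no replicate numbers. With 3 libraries per group and few reads at many exons, differences of several points in thinly read events cannot be told from the spread between libraries. Junction counts come from bulk RNA, read only listed events, and do not show which exons lie on the same transcript. Gene levels rest on 1 event each, and a gene without a listed event has none.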

Other observations

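The table of alternative 3′ splice sites held 7 septin events, found through their gene identifiers. Their PSI is the share of the longer exon. In SEPT8, sites 6 nt apart gave 74.3, 69.2 and 68.9% in control 1, 2 and 3 and 64.5, 57.1 and 78.2% in SAM68 1, 2 and 3 (p = 0.5 in a two-sided exact permutation test). In SEPT2, sites 16 nt apart before exon 5 gave 1.04, 0.826 and 1.5% in the control and 0.749, 0.684 and 0.522% in the SAM68 libraries, without overlap (p = 0.1 in a two-sided exact permutation test). These values rest on 7, 6 and 10 reads of the longer exon in the control and 5, 4 and 3 with SAM68. The share of events without overlap over that whole table was not computed. In SEPT7, sites 6 nt apart gave 92.2, 100 and 94.3% in the control and 100, 95.8 and 100% in the SAM68 libraries (p = 0.4 in a two-sided exact permutation test). SEPT5, which had no event among the members, had 100% in each library but SAM68 3, which had 83.6%.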
